A study of Mus musculus with 6 samples.

Results

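Microtubules are hollow polymers of a dimer of alpha and beta tubulin, and both subunits are made from several closely related genes, the isotypes. The dimer is assembled only after its subunits have been folded by the chaperonin CCT and a set of tubulin cofactors, and cells hold its amount in balance by destroying tubulin mRNA on the ribosome when free dimer is plentiful. In photoreceptors microtubules run along the axon and the inner segment and form the axoneme of the connecting cilium, through which outer segment proteins travel.

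Such genes, 10 in number, are described here in mouse rod photoreceptors: the alpha genes Tuba1a, Tuba1b, Tuba1c and Tuba4a and the beta genes Tubb2a, Tubb2b, Tubb3, Tubb4a, Tubb4b and Tubb5. They were taken by symbol, 10 of 52143 genes in the deposited table (4 alpha, 6 beta, none on a patch sequence), and the family was picked because Tuba1a fell between the study's groups. The level of Tuba1a and every count over the family are therefore descriptions of that comparison. Tuba1a, Tuba1b and Tuba1c lie near each other on chromosome 15, and Tubb2a and Tubb2b on chromosome 13. In the deposited coordinates, which fit GRCm38, Tuba1b spans chr15:98931425-98934565 and Tuba1a chr15:98949837-98953703, both on the minus strand, and Tuba1c spans chr15:99029891-99038110 on the plus strand. Tubb2a spans chr13:34074274-34078007 and Tubb2b chr13:34126748-34130466, both on the minus strand. The others lie apart, Tuba4a at chr1:75214228-75219865, Tubb4b at chr2:25222160-25224702, Tubb4a at chr17:57080066-57087782 and Tubb5 at chr17:35833921-35838306 on the minus strand, and Tubb3 at chr8:123411424-123422015 on the plus strand.

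RNA was measured in 6 libraries, 3 in each group. Pups were electroporated in vivo at birth (postnatal day 0), and cells positive for EGFP were flow-sorted at postnatal day 10. Controls carried the pLKO.1-Scrambled vector and the others a vector expressing a short hairpin RNA (shRNA) against Jun, the AP-1 subunit, each at 2.5 µg/µl in 0.4 µl. Both groups also received 1.5 µg/µl of an EGFP vector driven by the Nrl promoter, Nrlp-EGFP, which marks rods, so cells were gated by that reporter. No mouse strain, animal or litter is named for any library, no second shRNA was used, and the spread on which the p-values rest may thus be partly technical.

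Jun, the gene targeted, did not pass as lower. Its level, as CPM (counts scaled to library size, here with TMM factors), was 6.47, 5.85 and 7.16 in the controls. The libraries labelled Jun knockdown held 1.84, 17.6 and 19.3 CPM (log2 fold change 0.99, SE 1.44, edgeR quasi-likelihood adjusted p = 0.764). Only 1 of these 3 lay below the controls, so the group is named by its label throughout. Controls had 32150086 to 105800769 counts and the others 13211279 to 13998395, so depth and group cannot be told apart. Rod markers were present in all 6 libraries. Their summed level was 114838 to 122939 CPM in the controls but 28996 to 45755 CPM in the others. Of 12 rod markers 8 lay past the threshold as lower, beside 1.35% of all tested genes. Fewer cells of a type and less RNA per cell cannot be told apart in such samples.

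The coding sequences begin alike. The first 30 bases of the coding sequence are shown for 7 members, from the GENCODE vM21 transcripts, because codons 2 to 4 (capitals) encode the short start that tubulin mRNA decay reads on the nascent protein through TTC5. In alpha genes the start codon lies in exon 1 and codons 2 to 4 in exon 2, whereas in beta genes all lie in exon 1. The 12 opening bases took 2 forms among the 4 alpha genes and 5 forms among the 6 beta genes.
Tuba1a: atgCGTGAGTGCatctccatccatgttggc
Tuba1b: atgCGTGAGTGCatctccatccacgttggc
Tuba4a: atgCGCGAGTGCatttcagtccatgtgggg
Tubb2a: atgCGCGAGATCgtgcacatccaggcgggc
Tubb3: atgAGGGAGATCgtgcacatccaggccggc
Tubb4b: atgAGGGAGATCgtgcacctgcaggctggg
Tubb5: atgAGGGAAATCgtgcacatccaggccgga

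The ends of the coding sequences, where isotypes usually differ most and where the tail that carries tubulin's modifications is encoded, are shown for Tubb2a and Tubb2b, the most alike of the beta pairs in coding sequence. Of the last 60 coding bases before the stop codon, this pair differs at 3.
Tubb2a: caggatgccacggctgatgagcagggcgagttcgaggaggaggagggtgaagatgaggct
Tubb2b: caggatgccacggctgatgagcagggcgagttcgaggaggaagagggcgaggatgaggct

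Over the whole coding sequence Tuba1a was 98.3% identical to Tuba1b and 97.1% to Tuba1c, and Tuba1b was 97.9% identical to Tuba1c. Tuba4a stood apart from these at 84.7% to 85.2%. Tubb2a and Tubb2b were 96.5% identical, and all other beta pairs lay at 84.6% or below. Of the 31-base words in the Tuba1a transcript, 21.4% occur in no other gene's transcripts, and in its coding part 2.3%. The same shares were 21.4% and 2.8% for Tuba1b and 36.1% and 5.5% for Tuba1c, so these 3 genes are told apart mainly outside the coding sequence. Tubb3, Tubb4a and Tubb5 were the most distinct, with 96.7%, 98.3% and 95.5% of words of their own. Tubb4b had the fewest words of its own among the beta genes, 29.6% of the transcript and 22.6% of the coding part. It shared 54.5% of its words with the pseudogene Tubb4b-ps1, which held at most 4 counts in any library. For Tuba4a the words are those of Tuba4a-202, which held 25.5% of the gene's control counts. Those of Tuba4a-201, at 52.6%, were not examined. Tuba4a-202 shared 48.0% of its words with Stk16 on the opposite strand. No step that marks strand is stated, so reads there, or where Tubb4b and Fam166a overlap, cannot be assigned to one gene or the other. Values of Tuba1a, Tuba1b, Tuba1c, Tubb2a, Tubb2b and Tubb4b are uncertain to that degree, and those of Tuba4a at least in the part from Tuba4a-202.

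**Figure D1:**
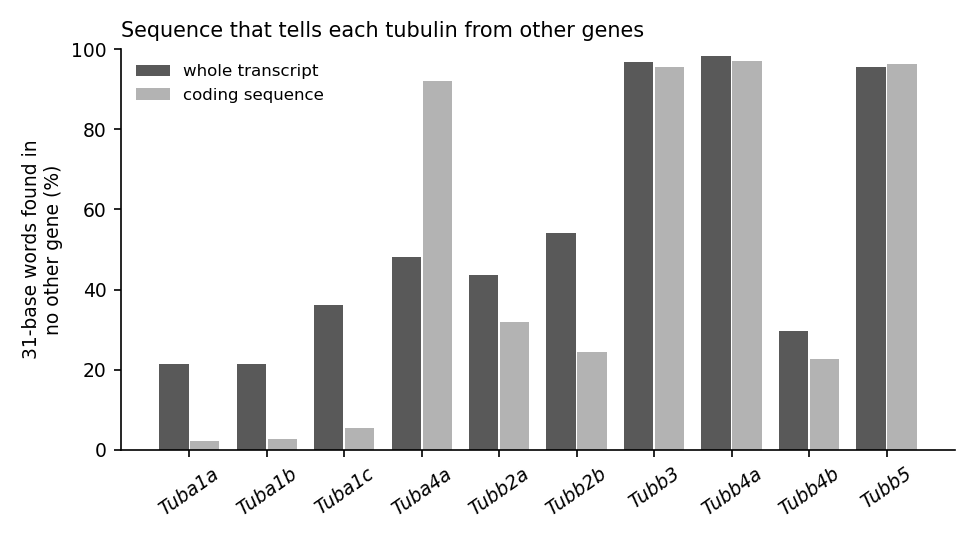
Share of 31-base words of each member's transcript (dark bars) and coding sequence (light bars), in percent, that occur in no other gene. Tuba1a, Tuba1b and Tuba1c have under 6% of coding words of their own, while Tubb3, Tubb4a and Tubb5 have over 95% in both. The bars of Tuba4a are for Tuba4a-202.

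Tuba1a, the main alpha tubulin of postmitotic neurons, was measured at 3327, 4027 and 4465 CPM in the controls. The libraries labelled Jun knockdown held 400.3, 340.5 and 186 CPM. All 3 controls lay at least 8.31 times above the highest of the others. The means were 3939 ± 574 and 309 ± 111 CPM (SD, n = 3), a 12.8-fold difference, and the fitted log2 fold change was -3.67 (SE 0.34). It is the value for which the family was picked, so no p-value is given for it.

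Tuba1b, an alpha isotype made in most cell types, was at 1879, 2707 and 3383 CPM in the controls and at 549.6, 211.7 and 14.3 CPM in the others. The groups did not overlap, but the 3 libraries labelled Jun knockdown spread over a 38.4-fold range. The log2 fold change was -3.36 (SE 0.98) and did not pass (edgeR adjusted p = 0.121). Of 18 alternatives it passed in 1, with no filter on low counts (edgeR adjusted p = 1.94e-16). Tuba1c, another near-identical alpha isotype, was at 58.5, 97.7 and 125 CPM in the controls and at 0.340, 0.226 and 0.131 CPM in the others, which is 5, 4 and 2 counts. It fell by 8.63 on the log2 scale (SE 1.28, edgeR adjusted p = 0.0155). That call was lost when any control or knockdown replicate 2 was left out (adjusted p = 0.0544 to 0.0898). Tuba1c passed the filter on low counts only through the controls, so its call is a description.

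Tuba4a, the alpha isotype whose encoded protein lacks the terminal tyrosine of the others, was at 59.2, 104 and 97.9 CPM in the controls. In the libraries labelled Jun knockdown it held 1, 8 and 9 counts, or 0.0681, 0.451 and 0.589 CPM. It fell by 7.86 on the log2 scale (SE 1.39, edgeR adjusted p = 0.0335). Leaving out any single library ended the call (adjusted p = 0.0632 to 0.143), as did scaling by library totals (adjusted p = 0.0538). Tuba4a too passed the filter on low counts only through the controls, and its call is a description. Stk16, whose transcript overlaps it, was at 39.8 ± 35.8 CPM in the controls and 19.4 ± 27.2 CPM in the others (SD, n = 3). Its groups overlapped.

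Among beta genes, Tubb5 is an isotype of dividing and many other cells. It was at 469.7, 864.5 and 678 CPM in the controls and at 34.0, 109 and 88.1 CPM in the others, with no overlap. It fell by 3.12 on the log2 scale (SE 0.55, edgeR adjusted p = 0.0329), and the call was lost without any single library (adjusted p = 0.0548 to 0.143). It was also lost with upper-quartile scaling, library totals and limma-voom (adjusted p = 0.0584, 0.0641 and 0.079). Tubb4b, a beta isotype of cilia and axonemes, was at 443, 511.5 and 624 CPM in the controls and at 2.59, 8.40 and 78.3 CPM in the others. Every control lay above every other library, and knockdown replicate 3 stood far above its group. The log2 fold change was -4.14 (SE 1.13, edgeR adjusted p = 0.102). Without knockdown replicate 3 it was -6.61 and passed (edgeR adjusted p = 0.0143). With all 6 libraries it also passed with no filter on low counts, DESeq2, limma-voom and the deposited signal plus 0.5 or 2 (adjusted p = 2.31e-07, 0.0312, 0.0493, 0.0294 and 0.0294).

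Tubb3, the beta isotype used as a marker of neurons, was at 48.0, 50.7 and 77.5 CPM in the controls and held 7, 9 and 4 counts in the others, or 0.477, 0.508 and 0.262 CPM. It fell by 7.13 on the log2 scale (SE 1.37, edgeR adjusted p = 0.0431), and leaving out any single library ended the call (adjusted p = 0.102 to 0.155). So did median-of-ratios scaling, upper-quartile scaling, library totals and thinning to equal depth (adjusted p = 0.0507, 0.0593, 0.0621 and 0.0539). The call of Tubb3 is also a description, because it passed the filter on low counts only through the controls. Tubb4a, an isotype abundant in brain, was at 36.9, 44.4 and 31.9 CPM in the controls and at 0.0681, 6.99 and 0.0654 CPM in the others. The low values are 1 count each, and the log2 fold change of -3.99 (SE 1.96) did not pass (edgeR adjusted p = 0.338). Knockdown replicate 2 alone held 124 counts, and without it the log2 fold change was -9.06 and still did not pass (edgeR adjusted p = 0.103).

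Tubb2a and Tubb2b are neighbouring neuronal isotypes. Tubb2a was at 145, 200.2 and 63.4 CPM in the controls and at 0.817, 17.3 and 1.18 CPM in the others, without overlap. Its log2 fold change was -4.41 (SE 1.38, edgeR adjusted p = 0.151). Without knockdown replicate 2 it was -7.08 (adjusted p = 0.0509), and it passed with no filter on low counts, DESeq2 and the deposited signal plus 2 (adjusted p = 0.00788, 0.0253 and 0.0469). Tubb2b was at 0.302, 31.1 and 23.0 CPM in the controls and at 0.953, 0.226 and 2.09 CPM in the others (log2 fold change -4.05, SE 1.96, edgeR adjusted p = 0.332). Control replicate 1 lay within the range of the libraries labelled Jun knockdown, so Tubb2b was the only member whose groups overlapped.

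**Figure D2:**
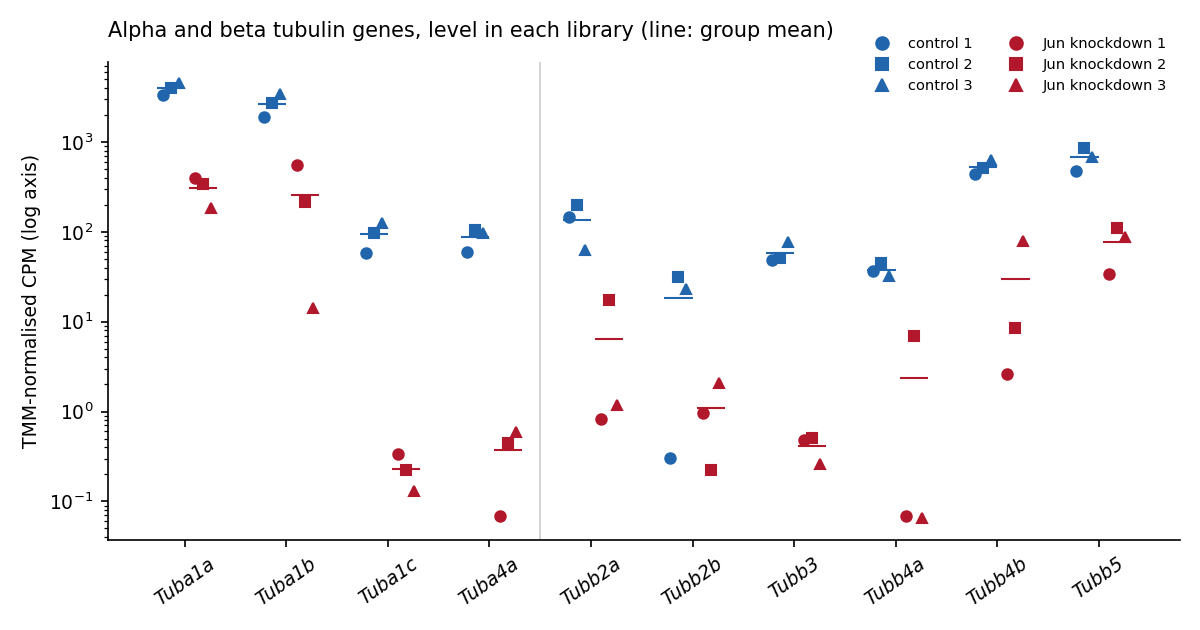
Level of each member in each library, in TMM-normalised CPM on a log axis, with controls in blue, libraries labelled Jun knockdown in red, and lines at group means (n = 3). Controls lie above the other libraries for 9 of 10 members, and for Tubb2b control replicate 1 falls among them. Over all tested genes 15.7% had every library labelled Jun knockdown below every control. The family was picked on this comparison, so the count is a description.

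All 10 members were lower on average in the libraries labelled Jun knockdown, and 9 of 10 had groups that did not overlap. Among all 12815 tested genes 52.1% had a negative log2 fold change, and 15.7% had every library labelled Jun knockdown below every control. Counting Tuba1a, which was picked for this difference, 5 of 10 lay past the threshold as lower, beside 1.35% of all genes tested (1.67% in either direction). With DESeq2 7 of 10 passed as lower, beside 6.96%, and with limma-voom 5, beside 2.46%. The other 4 by edgeR were Tuba1c, Tuba4a, Tubb3 and Tubb5. None passed as higher, beside 0.32%. Of the 4, Tuba1c, Tuba4a and Tubb3 held at most 9 counts in any library labelled Jun knockdown. They passed the filter on low counts only through the controls, so their calls are descriptions too. The median log2 fold change was -4.10 over the members (-5.77 for alpha, -4.10 for beta) and -0.12 over all tested genes. Since the family was picked on this comparison, nothing is read from these shares.

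**Figure D3:**
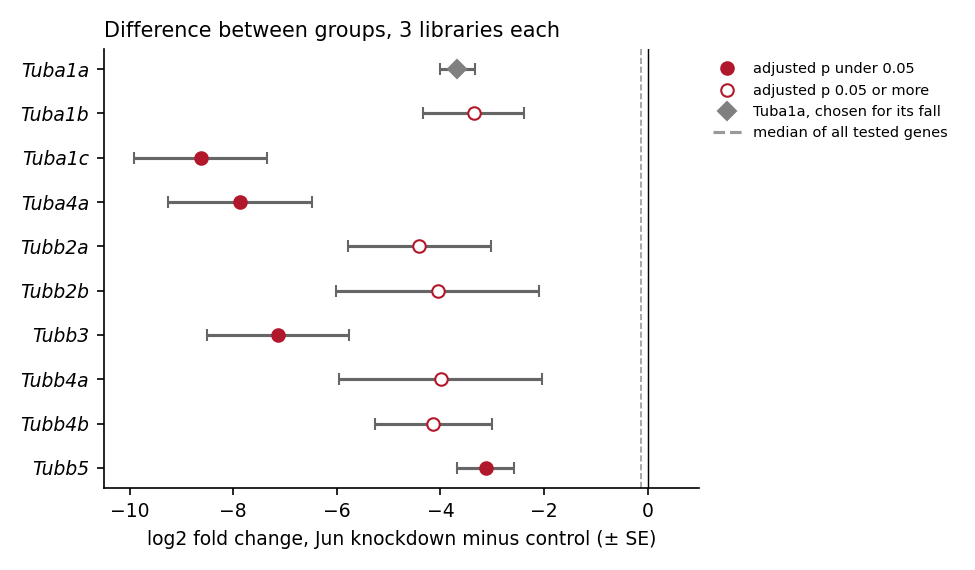
Log2 fold change of each member with its SE, libraries labelled Jun knockdown minus controls (3 each), with filled red points past the adjusted p threshold of 0.05 and a grey diamond for Tuba1a, whose value is a description because the family was picked on it. All 10 lie between -8.63 and -3.12, left of the dashed median of all tested genes at -0.12. The filled points of Tuba1c, Tuba4a and Tubb3 are descriptions too, because these genes passed the filter on low counts only through the controls.

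Sums over near-identical genes do not depend on how their shared reads were split. Tuba1a, Tuba1b and Tuba1c together were at 6689 ± 1360 CPM in the controls and 568 ± 375 CPM in the others (SD, n = 3), 11.8-fold apart. The sum of Tubb2a and Tubb2b was 154 ± 72.9 and 7.51 ± 8.67 CPM, 20.6-fold apart. All alpha members summed to 6776 ± 1380 and 568 ± 375 CPM, an 11.9-fold difference. All beta members summed to 1143, 1702 and 1497 CPM in the controls and to 38.9, 142 and 170.0 CPM in the others. The beta difference was 12.4-fold (two-sided exact permutation test p = 0.1, the smallest that 3 against 3 can give).

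Levels of different genes were compared per transcript length, as TPM (transcript counts divided by length and scaled to the same sum in every library). Together the 10 members made up 0.565 ± 0.121% of this measure in the controls and 0.0604 ± 0.0281% in the others (SD, n = 3). Tuba1a led the controls at 2695 TPM, followed by Tuba1b at 1905, Tubb4b at 424, Tubb5 at 320.4, Tubb2a at 106, Tuba4a at 68.2, Tuba1c at 59.7, Tubb3 at 38.5, Tubb4a at 21.2 and Tubb2b at 11 TPM. Of the neighbours in this order only 3 pairs had control libraries that did not overlap, namely Tuba1b above Tubb4b, Tubb5 above Tubb2a, and Tubb3 above Tubb4a. By mean TPM among 51280 genes Tuba1a ranked 38 in the controls and 602 in the others, and Tuba1b 60 and 717.

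The mix of isotypes was described as shares of the alpha or beta TPM. Tuba1a made up 57.5 ± 3.65% of alpha in the controls and 65.0 ± 25.2% in the others, and Tuba1b 39.9 ± 3.36% and 34.9 ± 25.4%. Within the group labelled Jun knockdown the Tuba1a to Tuba1b ratio was 0.734, 1.53 and 12.3, against 1.69, 1.42 and 1.26 in the controls, so the order of these genes turned in replicate 1. Given how few words of their own they have, this split is less certain than their sum. Tuba1c held 1.24 ± 0.203% of alpha in the controls and 0.0488 ± 0.0215% in the others, and Tuba4a 1.42 ± 0.219% and 0.140 ± 0.163%, without overlap for either.

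In beta tubulin, Tubb4b had the highest share in each control, at 47.9%, 39.4% and 52.9%, ahead of Tubb5 at 30.2%, 38.8% and 33.3%. In the libraries labelled Jun knockdown Tubb5 held 81.3%, 68.3% and 38.5% and Tubb4b 10.7%, 7.96% and 59.3%, so Tubb5 led in 2 of 3. Exact two-sided permutation tests, adjusted over 6 beta isotypes, gave p = 0.2 (adjusted 0.6) for Tubb5 and p = 0.4 (adjusted 0.8) for Tubb4b. An exact permutation of 3 against 3 libraries cannot go below p = 0.1, so these tests could not reach 0.05. Tubb3 lay below its control range in all 3, at 0.712 ± 0.717% against 4.28 ± 1.09% (exact permutation p = 0.1, adjusted 0.6). The alpha to beta ratio per length was 4.99, 4.61 and 5.91 in the controls. In the others it was 33.1, 5.20 and 1.29, spread to both sides of the controls. The ratio contains Tuba1a, so it is a description and no p-value is given for it.

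**Figure D4:**
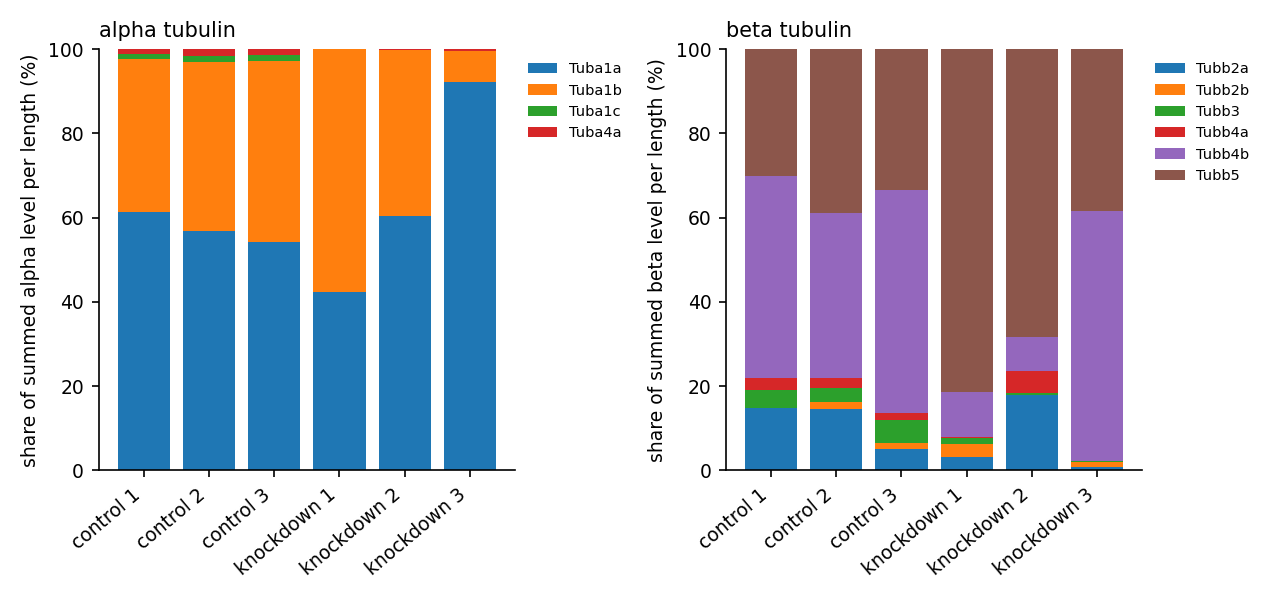
Share of each isotype in the summed alpha (left) and beta (right) level per length, in percent, with 1 bar per library. In Tuba1a, Tuba1b, Tubb4b and Tubb5 the controls resemble each other more than the 3 libraries labelled Jun knockdown do. Tubb5 held 81.3%, 68.3% and 38.5% of beta in the latter. Among the controls Tubb2a differed, at 14.9%, 14.6% and 5.09% of beta.

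The members have 25 annotated transcripts, of which 13 passed the filter on low counts and 3 were at 0 in every library. Most genes were carried by 1 protein-coding transcript. Tuba1a-201 held 100% of the Tuba1a counts, and Tuba1c-201, which fell by 8.69 on the log2 scale (SE 1.22, edgeR adjusted p = 0.0337), held 99.8% of its gene in the controls. With Tuba1a-201, which holds the value the family was picked on, 2 of the 13 lay past the threshold as lower, beside 0.604% of all 20706 transcripts tested, and none as higher, beside 0.058%. Tuba1c-201 held 5.68, 4.47 and 2.65 counts in the libraries labelled Jun knockdown. It passed the filter only through the controls, so its call is a description too. Tuba4a was split among Tuba4a-201, Tuba4a-202 and Tuba4a-206, at 52.6%, 25.5% and 21.7% of its control counts. Tuba4a-202, the form examined for overlap with Stk16, was at 700.2, 2766 and 886 counts in the controls and at 0 in all 3 others (edgeR adjusted p = 0.0921). Tuba4a-202 likewise passed the filter only through the controls, so its value is a description. In knockdown replicate 2, 80.1% of the few Tubb4b transcript counts (67.5) were assigned to Tubb4b-202, a processed transcript without an open reading frame.

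RefSeq promoters (GRCm38.p6, the 250 bases before the start) were matched for 9 of 10 members, all but Tubb2b, and searched on both strands for 4 motifs. The AP-1 site TGANTCA, which Jun binds with its partners, was in 0 of 9 and in 6.9% of all 27025 promoters. The cAMP response element TGACGTCA was in 1 of 9 (Tubb2a, 1.6% of all), CCAAT in 5 (34.5%), and TATAAA in 1 (Tubb2a, 13.0%). No match of one motif overlaps a match of another. The promoters of Tubb2a (chr13:34078009-34078258, minus strand) and Tubb4b (chr2:25224703-25224952, minus strand) are shown, with matches in capitals, because one holds 2 different motifs and the other the most matches of any member. In Tubb2a the TGACGTCA match lies 59 to 52 bases and TATAAA 29 to 24 bases before the start, and Tubb4b holds 5 CCAAT matches.
Tubb2a: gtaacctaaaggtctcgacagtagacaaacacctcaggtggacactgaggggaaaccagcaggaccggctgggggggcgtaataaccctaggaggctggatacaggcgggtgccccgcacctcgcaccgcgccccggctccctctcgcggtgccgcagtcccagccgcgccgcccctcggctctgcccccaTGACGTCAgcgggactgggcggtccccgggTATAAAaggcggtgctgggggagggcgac
Tubb4b: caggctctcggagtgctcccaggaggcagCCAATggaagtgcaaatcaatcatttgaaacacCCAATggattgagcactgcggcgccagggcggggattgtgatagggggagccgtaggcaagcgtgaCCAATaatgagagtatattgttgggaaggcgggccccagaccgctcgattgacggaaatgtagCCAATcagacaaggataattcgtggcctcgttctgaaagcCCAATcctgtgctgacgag

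Genes that act on tubulin were taken from lists and are given by count and median. Over all tested genes 1.35% passed as lower and 0.32% as higher, to be set beside every list count. Among 23 tested folding genes, 1 passed as lower and 0 as higher, with a median log2 fold change of -1.19, against -0.12 for all tested genes. The 1 was Cct7, a subunit of the CCT chaperonin that folds tubulin and actin. It was at 581.5, 676 and 848 CPM in the controls and at 8.30, 2.03 and 16.8 CPM in the others. It fell by 6.28 on the log2 scale (SE 0.82, edgeR adjusted p = 0.0103), and without control replicate 1 or control replicate 3 it did not pass (adjusted p = 0.0539 and 0.065). Of the 23 folding genes, 13 had every library labelled Jun knockdown below every control and 1 above. Over all tested genes these shares were 15.7% and 12.6%. The CCT subunits Cct8 and Cct6a, both with high control levels, did not pass, and their groups did not overlap. Cct8 was at 653 ± 143 and 181 ± 127 CPM (edgeR adjusted p = 0.206), and Cct6a at 575 ± 126 and 173 ± 73.9 CPM (edgeR adjusted p = 0.101).

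Among 12 tested genes of tubulin mRNA decay none passed in either direction, and the median was -0.11. Ttc5, which recognises the nascent tubulin chain, was at 173 ± 120 and 33.2 ± 21.9 CPM (log2 fold change -2.38, SE 0.83, edgeR adjusted p = 0.194). Cnot6 and Cnot7, deadenylase subunits of the CCR4-NOT complex, were at 278 ± 84.6 and 773 ± 225 CPM and at 229 ± 148 and 175 ± 90.8 CPM. Among 17 of 30 tested genes that modify tubulin, none passed and the median was 0.22. Agtpbp1, which removes glutamates from tubulin tails, was at 457 ± 105 and 942 ± 205 CPM (edgeR adjusted p = 0.176), and Nicn1 at 316 ± 100 and 34.7 ± 37.3 CPM (edgeR adjusted p = 0.219).

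Among other tubulins, 3 of 10 genes were tested and none passed. Tubg1, the gamma tubulin that nucleates microtubules, was at 105 ± 30.3 and 17.7 ± 29.0 CPM (edgeR adjusted p = 0.427). Tube1, epsilon tubulin, was at 53.2 ± 47.5 and 67.0 ± 64.4 CPM (edgeR adjusted p = 0.927), and Tubg2 overlapped between groups (edgeR adjusted p = 0.832). Tuba3a, Tuba3b, Tuba8, Tubal3, Tubb1, Tubb6 and Tubd1 did not pass the filter on low counts. Of these only Tubb6 held more than 7 counts in a library, with 254, 2552 and 1 in the controls and 1, 0 and 2 in the others.

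Of 19 nucleation genes, none passed in either direction (median -0.24), with Akap9 at 160 ± 99.1 and 57.2 ± 39.2 CPM and Mzt2 at 90.9 ± 32.3 and 28.5 ± 33.0 CPM. Of 36 tested microtubule-associated genes, none passed (median -0.02), with Map1b, a microtubule binder of axons, at 801 ± 289 and 770 ± 378 CPM and Map1lc3b at 745 ± 68.4 and 430.3 ± 250 CPM. Of 25 tested motor genes, Dctn2, a dynactin subunit, passed as lower and none as higher, and the list median was 0.26. Dctn2 was at 165, 300.4 and 84.8 CPM in the controls and at 7.76, 3.33 and 7.98 CPM in the others. It fell by 4.85 on the log2 scale (SE 0.89, edgeR adjusted p = 0.0384), and leaving out any single library ended the call (adjusted p = 0.0768 to 0.186), as did upper-quartile scaling, library totals and limma-voom (adjusted p = 0.0548, 0.0575 and 0.105). The dynein light chains Dynll1 and Dynlt1b were at 1343 ± 329 and 1476 ± 491 CPM and at 540.3 ± 123 and 1454 ± 203 CPM (edgeR adjusted p = 0.865 and 0.0553).

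The actin list served as a second cytoskeletal system. Of 20 tested genes, 1 passed as lower and 0 as higher, with a median of -1.31. In 10 every library labelled Jun knockdown lay below every control and in 1 above, beside 15.7% and 12.6% of all tested genes. Actg1, a cytoplasmic actin, was at 2514, 4158 and 3537 CPM in the controls and at 113, 210.4 and 444 CPM in the others. It fell by 3.74 on the log2 scale (SE 0.51, edgeR adjusted p = 0.0117), and without control replicate 3 or with limma-voom it did not pass (adjusted p = 0.0657 and 0.101). Tmsb4x, which binds free actin, was at 1896 ± 751 and 2197 ± 543 CPM, and Capza2 at 625 ± 309 and 244 ± 96.2 CPM (edgeR adjusted p = 0.791 and 0.215).

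**Figure D5:**
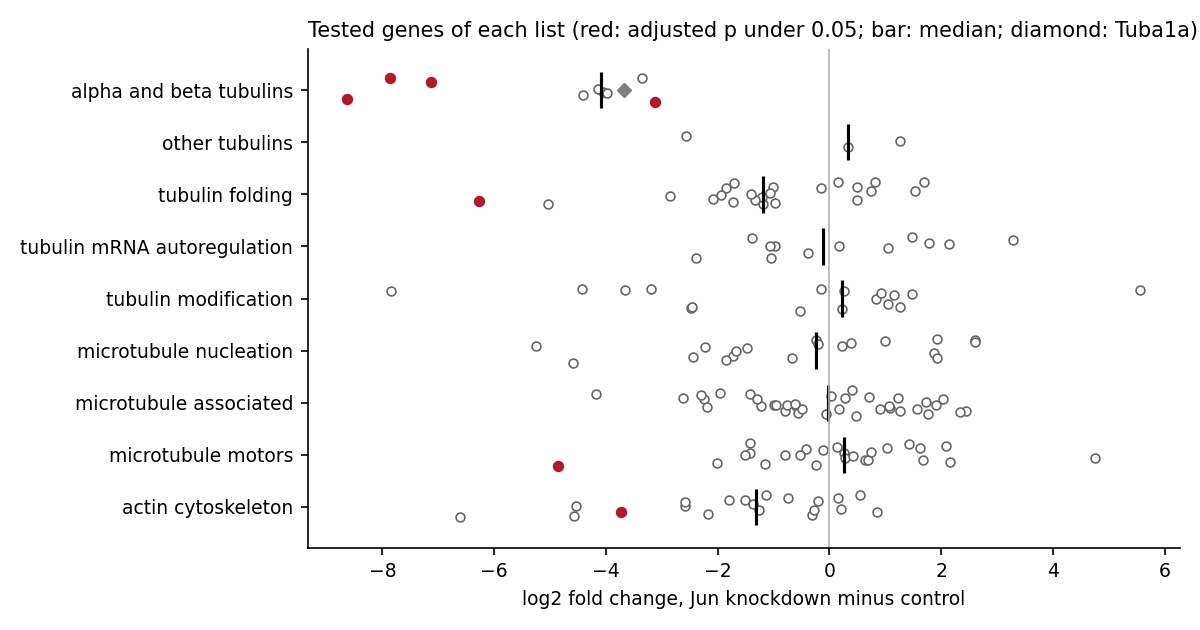
Log2 fold change of every tested gene of each list, libraries labelled Jun knockdown minus controls, with red points past the adjusted p threshold of 0.05 and a bar at each list's median. The tubulin members sit between -8.63 and -3.12, and the lists of decay, modification, nucleation, associated and motor genes have medians between -0.24 and 0.26 with TMM scaling, which move with the processing. Among the members Tuba1a is a grey diamond, and the red points of Tuba1c, Tuba4a and Tubb3 are descriptions.

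Levels across the 6 libraries were compared with Tuba1a by Pearson correlation of log2 CPM. The nearest were Rom1 (r = 0.9990), an outer segment disc protein of rods, Mrpl2 (r = 0.9983), Gm17383 (r = 0.9971), Gm3756 (r = 0.9958) and Tuba1c (r = 0.9940). These 6 points share depth and group, so any gene with a large, even difference between the groups ranks high, and 315 genes had r over 0.95. In the libraries labelled Jun knockdown Gm17383 held 1, 1 and 0 counts, Gm3756 4, 6 and 2, and Tuba1c 5, 4 and 2. The r of these genes thus rests on values near the floor in that group. Among the other members r was 0.99 for Tubb3 (rank 7 of 12814) and 0.54 for Tubb2b (rank 3176).

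Markers of some other retinal and blood cell types differed between the groups and those of others overlapped. The counts called stand beside 1.35% as lower and 0.32% as higher over all tested genes. Microglial markers summed to 850.4 to 1219 CPM in the controls and 14.8 to 47.4 CPM in the others, with 4 of 9 tested past the threshold as lower. Vascular and blood markers summed to 182 to 343 and 20.5 to 66.0 CPM, with 3 of 6 as lower and Hba-a1 at 0 in all 3 libraries labelled Jun knockdown. Müller glia markers summed to 1929 to 2225 and 280 to 370.5 CPM with 0 of 11 called. Bipolar markers summed to 711.5 to 761 and 1101 to 1673 CPM, with 1 of 10 as lower and 1 as higher. Cone markers summed to 3562 to 7028 and 2559 to 3322 CPM, with 1 of 9 as lower. Ganglion cell markers, a neuron class rich in Tubb3, summed to 174 to 310 and 106 to 208 CPM, with 0 of 4 called. Sncg was at 0 in all libraries labelled Jun knockdown and in 2 of 3 controls, and was not tested. Amacrine markers summed to 13.1 to 63.4 and 15.6 to 61.8 CPM, with 0 of 4 called. The part of these cell types in the tubulin values was not tested.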

How the data were processed

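Libraries were made by Nextera XT from SMART-seq cDNA, per the labels' protocols, so reads come from whole transcripts. The authors deposited estimated counts per gene and per transcript, and a gene table named as CPM. The submitters' processing notes list kallisto 0.44.0, Trimmomatic 0.39 and edgeR 3.28.1 with no role, and the genome build was not given in the sources used here. Columns of the deposited table named as CPM summed to 1250540 to 2385208 per library, and the table was handled as a deposited signal on a scale set by the authors, used only as an alternative. No sample column was left out (0 columns).

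The authors' estimated counts were rounded, low genes were removed by filterByExpr, and TMM scaling was applied. The quasi-likelihood test of edgeR (version 4.0.16 in R 4.3.3) compared the groups over 12815 genes, with Benjamini-Hochberg adjustment and a threshold of 0.05. The SE is the size of the log2 fold change over the root of the F statistic. Transcripts (20706) were tested the same way, and the code was tested on simulated data. TPM is transcript counts divided by GENCODE vM21 lengths, scaled to the same sum in each library over matched transcripts (134456 of 136550). Of gene values whose transcript sums exceed 50 counts, 6.62% lay within 1% of that sum, although both tables have the same library totals, so gene and transcript values were not compared gene by gene. Words of 31 bases were counted over the deposited transcripts, and coding identity came from global alignment. A correlation over libraries used log2 CPM with a prior count of 2.

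The members and the gene lists, and the naming rule, were chosen with earlier results of these data known. Named are all members, Jun, the list genes past the threshold, the 2 highest control genes of each list that did not pass, the 5 genes nearest Tuba1a, and member transcripts with 10% or more of a gene. Ttc5 was added because it reads the sequence shown, Tubg2 and Tubb6 as other tubulins. Alternatives were other scalings and filters, DESeq2 1.42.0, limma-voom (limma 3.58.1), the deposited signal with a pseudocount of 0.5 or 2, summed transcript counts, thinning to the smallest total, a block for replicate number, and leaving out 1 library at a time.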

Additional observations from a re-analysis of the deposited data

How the results depend on the processing

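No member's log2 fold change turned positive in any of 18 alternatives, and that of Tuba1a lay between -3.93 and -3.17. The count of members called lower, 5 of 10, became 3 with upper-quartile scaling, 2 with library totals and 8 with no filter on low counts. It became 2 with the replicate block, although same-numbered libraries did not deviate together (correlations -0.02 to 0.01), and 1 to 3 when each library was left out. It was within 1.5 times the main count under the other 8 alternatives. Genes called over the whole table numbered 214, and 737 with no filter, 1955 with DESeq2, 442 with limma-voom, 615 and 553 with the deposited signal plus 0.5 and 2, 97 with the replicate block, and 36 to 110 when each library was left out. Transcripts called numbered 137, and 64 with library totals, 1085 with no filter, 82 with the replicate block and 22 to 101 when each library was left out. The share of calls that were lower was 80.8%, and 61.8% with upper-quartile scaling, 53.7% with library totals and 57.4% with DESeq2. The median log2 fold change of all genes moved by 0.15 with median-of-ratios scaling, 0.39 with upper-quartile scaling, 0.49 with library totals and 0.30 with thinning, and no member's direction turned with it. Tubb4b passed in 6 of 18 alternatives, among them DESeq2 (adjusted p = 0.0312), while Tubb2b and Tubb4a passed in none. The median of the motor list, 0.26, became -0.06 and -0.08 with the deposited signal plus 0.5 and 2, and lay between -0.15 (without Jun knockdown replicate 1) and 0.51 when each library was left out. The folding median, -1.19, became -0.82 with upper-quartile scaling, -0.72 with library totals and -0.89 with thinning, and the actin median, -1.31, became -0.92, -0.78 and -0.93. The nucleation median, -0.24, became -1.69 with limma-voom, -1.40 with the deposited signal plus 0.5, -1.55 with the replicate block and -1.51 without Jun knockdown replicate 1, and the modification median, 0.22, became -0.93 without Jun knockdown replicate 2. The medians of the decay list, -0.11, and the associated list, -0.02, became 0.38 and 0.44 with library totals, and that of the 3 other tubulins, 0.33, became -2.91 with limma-voom and -5.46 with the replicate block. The replicate block also ended the calls of Tuba1c, Tuba4a, Tubb3 and Dctn2 (adjusted p = 0.0796, 0.0927, 0.152 and 0.141). The cause of these moves was not tested. The shallowest library held 13211279 counts. In the libraries labelled Jun knockdown, levels of Tuba1c, Tuba4a and Tubb3 rest on 1 to 9 counts each. Those of Tubb4a rest on 1, 124 and 1. The size of these fold changes is therefore uncertain. For Tuba1c, Tuba4a, Tubb3 and Tubb4a the log2 fold changes were -8.63, -7.86, -7.13 and -3.99. With every library thinned to the smallest total they were -8.30, -7.55, -6.88 and -3.71. Beyond this thinning the part of depth was not tested.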
